A study of Mus musculus with 37 samples.

Results

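Mast cells given IL-10 and then LPS were compared with mast cells given LPS alone, in mouse bone marrow-derived mast cells grown from C57Bl6cJ mice. The groups were labelled Mast Cell +IL10 +LPS and Mast Cell -IL10 +LPS. IL-10 was given at 100 ng/ml for 4 h, LPS at 100 ng/ml was then added for a further 4 h, and the comparison group received the same LPS without the IL-10. Each group had 2 libraries from separate pools of mice, 4 of the 37 samples in the series, and 1 value per transcript and group was used here, the mean over the pair made by the authors. Transcript values were added up for each gene name, and of 6509 named genes in the table, 5647 had a value of at least 10 in either group and were compared. A difference is given as log2((IL-10 + LPS value + 1)/(LPS value + 1)), and a gene was called lower or higher when it differed at least 2-fold; such genes are also named lowered or raised below. Because the spread between the replicates is not in these means, no difference below has an error or a test, and 1 library of a pair could carry any of them. The mast cells were a differentiated culture and not a tissue population. Their defining markers were present: Kit, the stem cell factor receptor, stood at 130854 with LPS and 86014.5 with IL-10 + LPS, and Gata1, a mast cell transcription factor, at 2482 and 2562.5.

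IL-10 is a cytokine that restrains inflammatory gene expression. It binds a receptor made of IL-10RA and IL-10RB, which acts through the Janus kinases and the transcription factor STAT3. LPS, the outer membrane lipid of Gram-negative bacteria, is sensed by TLR4, which leads to NF-kB-driven cytokine transcription and, through a second branch, to type I interferon and interferon-stimulated genes. Mast cells are granule-filled sentinels of barrier tissues that release histamine, proteases and cytokines.

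With IL-10 present during LPS, 257 genes were at least 2-fold lower (4.55% of the 5647 compared) and 157 were at least 2-fold higher (2.78%). The remaining 5233 lay within 2-fold, and the median gene differed by -0.02 on the log2 scale. The median difference was -1.41 among the genes called lower and 1.47 among those called higher, and 46 and 41 genes passed 4-fold. Of the called genes, 181 lower and 120 higher had a value of at least 50 in either group, and the genes named below come from these unless a low value is stated. Just inside the lower limit stood Slit2, at 55 with LPS and 27 with IL-10 + LPS, and just outside it Tmem9, at 5656.5 and 2830. Just inside the upper limit stood Atrnl1, at 25 and 51. Where a called gene had more than 1 transcript at 10 or more, its transcripts nearly always shared the direction, in 98 of 109 genes called lower and 55 of 59 called higher.

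**Figure D1:**
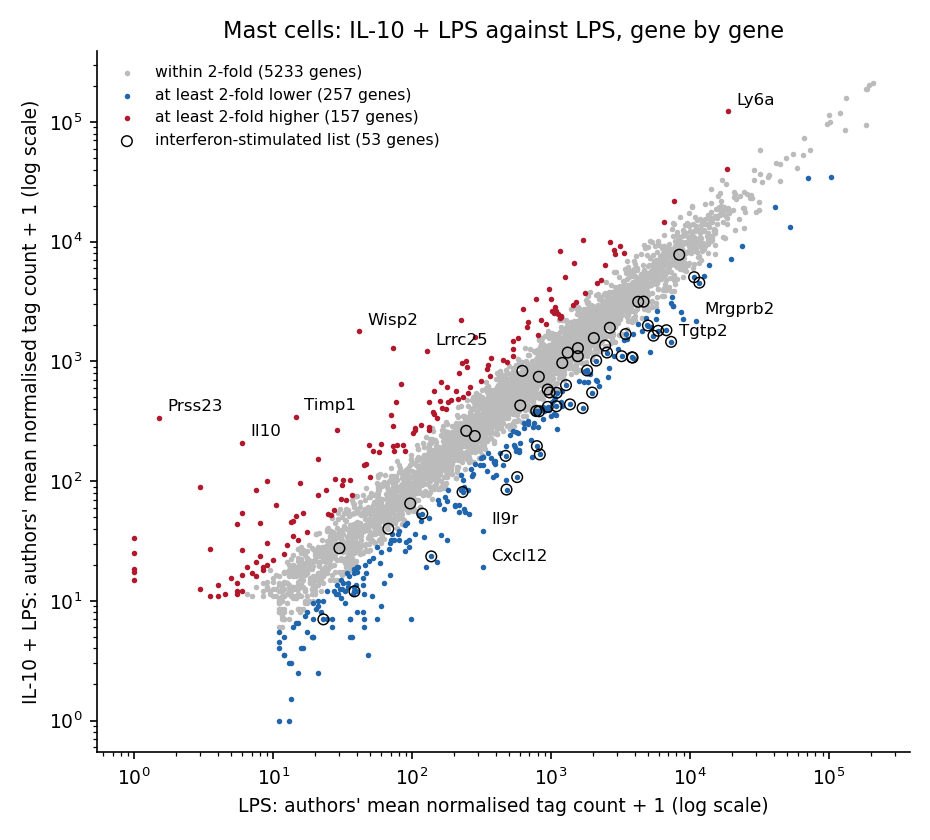
Each point is a gene in mast cells, with its value after LPS on the x axis and after IL-10 + LPS on the y axis (authors' mean normalised tag counts plus 1, log scales). The 257 blue genes and the 157 red genes are those called lower and higher, and black rings mark the 53 interferon-stimulated genes, which lie within or below the main band.

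By number, interferon-stimulated genes made up the largest single group of lowered genes among the 28 lists examined. The lists were chosen with earlier results of these data known, so their shares are a description and not separate support. A larger share was lower among the chemokines, 4 of 5 compared, and the interferon list was the longest. Of 106 genes on that list, 53 were in the table and all 53 passed the minimum; 33 of them (62.3%) were at least 2-fold lower with IL-10 + LPS, against 4.55% of all genes, and 0 were higher. The median difference was -1.09 and 51 of the 53 lay below 0. The immunity-related GTPase Tgtp2, which acts against intracellular pathogens, had a value of 671.5 untreated, 830.5 with IL-10, 7321 with LPS and 1455 with IL-10 + LPS, a log2 difference of -2.33. It was far higher with LPS than in the other groups, and its value with IL-10 + LPS was 5.03-fold below that with LPS.

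Other members had the same form. Ddx58, the RNA sensor RIG-I, had values of 1406, 1423.5, 6773.5 and 1820 in untreated, IL-10, LPS and IL-10 + LPS cells, a difference of -1.90. Xaf1, a pro-apoptotic interferon target, had 106, 110, 830 and 166, a difference of -2.32. In each of these genes LPS alone gave the high value and the other 3 treatments lay together. Usp18, the protease that removes ISG15 and restrains interferon receptor signalling, was at 170, 117.5, 1688 and 406.5. Rtp4, an interferon-inducible transporter protein, was at 8.5, 4, 477.5 and 84, and Oasl1, an oligoadenylate synthetase-like protein, at 61.5, 46, 570 and 107. These last genes stayed above the cells without LPS while being several times below LPS alone.

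The lowered members covered several functions. Among the GTPases that act against intracellular pathogens, Irgm1 differed by -1.54, Irgm2 by -1.85, Igtp by -1.65, Gbp7 by -1.83, Gbp2 by -1.12 and Gbp3 by -1.01, the last no longer called with a pseudocount of 10 (-0.996) or after centring (-0.98). Among the nucleic acid sensors, Ifih1 differed by -1.18 and Zbp1 by -1.15, and among the oligoadenylate synthetases Oas1a differed by -1.54, Oas3 by -1.51 and Oasl2 by -2.01. The poly-ADP-ribose polymerases Parp14 and Parp9 differed by -1.74 and -1.06, and Dtx3l, the ubiquitin ligase that partners Parp9, by -1.85. Trim25, Trim30a and Trim34a, of a family of ubiquitin ligases, differed by -1.03, -1.32 and -1.38. Tgtp1 and Tgtp2 are near-identical copies, as are Oas1a and Oas1g, so the division of reads between the members of each pair is uncertain. Called members at low values were Oas1g, at 37.5 with LPS and 11 with IL-10 + LPS, and I830012O16Rik, at 22 and 6.

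Not every member was lowered 2-fold. Ifit2, an antiviral tetratricopeptide protein, had values of 282 with LPS and 237 with IL-10 + LPS, a difference of -0.25, and Ifit3 had 96 and 64, a difference of -0.58. Ifit1, of the same family, was called, at 820 and 382, a difference of -1.10. Gbp5 differed by -0.70, Stat2, an interferon signalling factor, by -0.85, and Irf1, an interferon-induced transcription factor, by -0.15.

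Without LPS these genes differed little with IL-10. Between IL-10 and untreated cells, 0 of the 47 list members that passed the minimum there were called in either direction, against 2.67% lower and 2.14% higher over all genes, and the median difference was 0.02. Of the 33 members lowered during LPS, 29 passed the minimum there. Their IL-10 difference without LPS ranged from -0.53 (Usp18) to 0.42 (Zbp1). The response to LPS was also taken as LPS against untreated cells and as IL-10 + LPS against IL-10. These share no column with each other. Each shares a group with the main comparison, so the counts that follow restate it in part and are not separate support. Without IL-10, 40 of 53 members were at least 2-fold higher with LPS, beside 4.71% of all genes, and the median difference was 1.84. With IL-10, 13 of 52 were at least 2-fold higher, beside 3.61% of all genes, and the median was 0.33. Of the 33 lowered members, 23 lay within 2-fold of untreated cells when IL-10 was given with LPS. The share of all compared genes that did so was not taken, so this count has no background to be read against. The members were also selected in part for a low value with IL-10 + LPS. The groups without LPS were collected 4 h earlier than those with it, so LPS and time in culture cannot be told apart in these responses. LPS was given for 4 h both with and without IL-10.

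**Figure D2:**
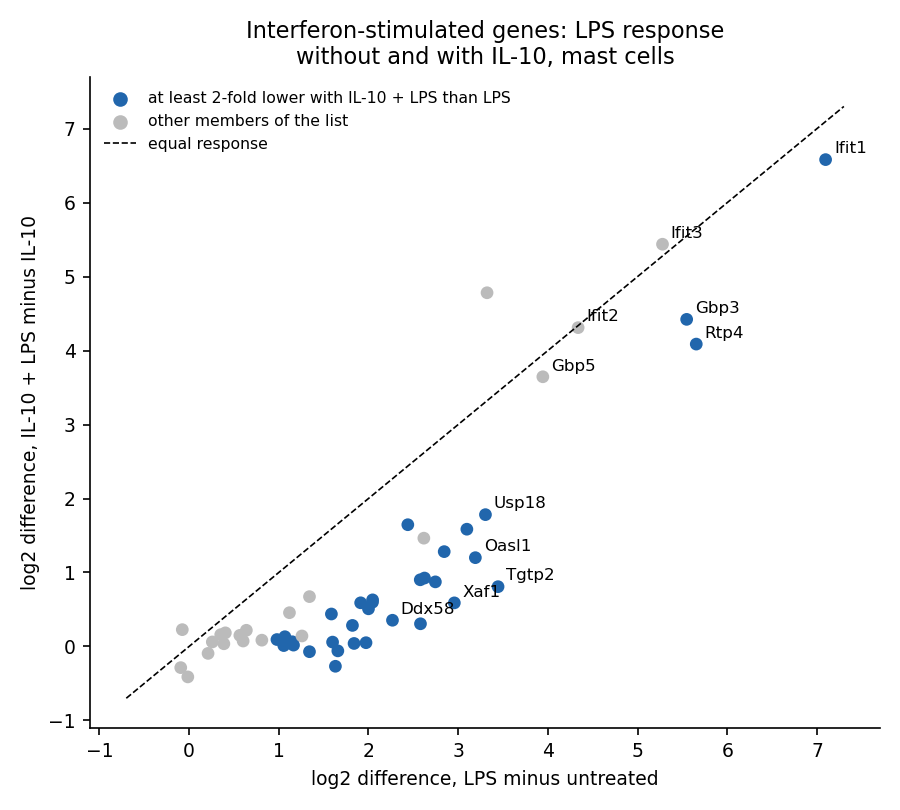
Each point is an interferon-stimulated gene in mast cells, with its log2 LPS response without IL-10 on the x axis and with IL-10 on the y axis; the dashed line marks an equal response and blue marks the genes called lower. Tgtp2 (3.44 without and 0.81 with IL-10) and Ddx58 (2.27 and 0.35) lie far below the line, while Ifit2 (4.34 and 4.31) lies on it. The blue genes were selected on groups that both axes use, so their place below the line follows in part from that selection.

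The promoters of lowered members are shown because many hold short letter patterns of the kind that interferon regulatory factors are known to bind. Fewer hold patterns of the kind that STAT proteins are known to bind. In the 250 bases before each RefSeq start (GRCm38.p6), 3 patterns were searched on both strands, GAAANNGAA (IRF type), TTCNNNGAA (STAT type) and GGGNNTTTC (kB type). The IRF type was held by 15 of the 25 lowered interferon-stimulated genes found in the RefSeq table (60%), by 6 of the 18 that were kept but not called (33.3%), by 19 of the 163 other lowered genes found there (11.7%) and by 12 of the 115 higher genes (10.4%). Over 4176 compared genes found in the table the share was 8.31%, and over all 32851 promoters it was 7.13%. The STAT type was held by 6 of the 25 lowered interferon-stimulated genes (24%), by 5 of the 18 not called (27.8%), by 16 of the 163 other lowered genes (9.82%) and by 7 of the 115 higher genes (6.09%), against 8.14% of compared genes and 7.02% of all promoters. The kB type was held by 1 of the 25 (4%), by 2 of the 18 not called (11.1%), by 12 of the 163 other lowered genes (7.36%) and by 5 of the 115 higher genes (4.35%), against 4.91% of compared genes and 3.72% of all promoters. A match is a description of letters and not a binding site. The printed lowered promoters were selected for an IRF-type match. All 5 also hold a STAT-type match, unlike most lowered members, so their layout is not typical of the set. Timp1 was not the most raised gene with 1 RefSeq start. The first 5 lowered members, by size of difference, with 1 RefSeq start and an IRF-type match are printed below 5′ to 3′ on the gene's strand, with IRF-type and STAT-type matches in capitals, and Timp1, among the most raised genes, follows with no match to any of the 3 patterns:
Tgtp1 (chr11:48992247-48992496, minus strand): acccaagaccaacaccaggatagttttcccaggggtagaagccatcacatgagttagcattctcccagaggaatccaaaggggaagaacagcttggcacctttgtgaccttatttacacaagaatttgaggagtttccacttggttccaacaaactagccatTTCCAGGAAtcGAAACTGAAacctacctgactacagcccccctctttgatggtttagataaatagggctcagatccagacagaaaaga
Tgtp2 (chr11:49064213-49064462, minus strand): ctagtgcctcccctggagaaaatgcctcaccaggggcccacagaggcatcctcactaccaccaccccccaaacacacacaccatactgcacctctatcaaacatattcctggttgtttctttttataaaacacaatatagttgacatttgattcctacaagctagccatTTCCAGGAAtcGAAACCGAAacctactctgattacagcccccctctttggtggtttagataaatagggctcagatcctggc
Irgm2 (chr11:58214727-58214976, plus strand): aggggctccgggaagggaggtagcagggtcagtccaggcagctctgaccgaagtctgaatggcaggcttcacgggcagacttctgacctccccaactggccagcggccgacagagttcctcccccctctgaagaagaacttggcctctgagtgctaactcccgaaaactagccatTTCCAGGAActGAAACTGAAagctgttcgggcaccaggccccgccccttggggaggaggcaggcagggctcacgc
Igtp (chr11:58199306-58199555, plus strand): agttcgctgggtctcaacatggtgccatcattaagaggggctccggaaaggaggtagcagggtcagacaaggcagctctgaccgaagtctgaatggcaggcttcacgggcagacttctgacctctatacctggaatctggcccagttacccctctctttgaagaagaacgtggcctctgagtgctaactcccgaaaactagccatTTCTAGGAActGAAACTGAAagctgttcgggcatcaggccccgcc
Gbp7 (chr3:142530086-142530335, plus strand): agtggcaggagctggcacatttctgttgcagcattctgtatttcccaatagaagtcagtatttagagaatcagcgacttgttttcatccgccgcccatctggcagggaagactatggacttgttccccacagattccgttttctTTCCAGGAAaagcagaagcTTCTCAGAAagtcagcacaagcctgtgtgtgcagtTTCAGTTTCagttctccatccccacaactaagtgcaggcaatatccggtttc
Timp1 (chrX:20869916-20870165, plus strand): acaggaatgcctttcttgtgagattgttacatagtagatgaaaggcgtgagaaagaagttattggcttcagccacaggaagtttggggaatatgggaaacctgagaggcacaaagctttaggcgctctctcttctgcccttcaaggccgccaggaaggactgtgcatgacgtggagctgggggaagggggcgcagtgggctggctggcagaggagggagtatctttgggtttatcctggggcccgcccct

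In Tgtp1, Tgtp2, Irgm2 and Igtp, which are related GTPase genes, the STAT-type match began 11 bases before the IRF-type match, and the IRF-type match began 77, 70, 64 and 34 bases before the start. In Gbp7 the IRF-type match lay on the other strand, 52 bases before the start, with STAT-type matches at 106 and 87. No pattern overlapped another in these promoters.

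Secreted signals of LPS-treated mast cells were lower in several families, among them the chemokines. Of 36 chemokines listed, only 7 were in the copy of the table used, so the others could not be examined. Of these 7, 5 passed the minimum and 4 were called lower, beside 4.55% of all genes. Their median was -2.48, or -1.65 with a pseudocount of 10. Cxcl12, the ligand of CXCR4 (chr6:117118553-117131385, plus strand, NCBIM37), had values of 204.5 untreated, 45 with IL-10, 323 with LPS and 18 with IL-10 + LPS, and its difference of -4.09 was the lowest of any gene at 50 or more. It was low in both groups that received IL-10. Cx3cl1, the membrane-bound chemokine fractalkine, had 49.5, 10, 150 and 20, also low in both IL-10 groups, a difference of -2.85. The CCR4 ligands Ccl17 and Ccl22 were low throughout, their values after LPS being 34.5 and 43.5 and those after IL-10 + LPS being 6 and 7. Cxcl16, the ligand of CXCR6, was at 1680.5 with LPS and 965 with IL-10 + LPS, a difference of -0.80 that was not called.

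Csf2, which encodes the myeloid growth factor GM-CSF (chr11:54060773-54063169, minus strand, NCBIM37), had values of 2, 0, 97 and 6 in untreated, IL-10, LPS and IL-10 + LPS cells, a difference of -3.81. Il12b, the shared subunit of IL-12 and IL-23, was listed at 0 in both groups without LPS and stood at 58.5 with LPS and 8 with IL-10 + LPS, a difference of -2.72. Il27, a subunit of IL-27, was at 167.5 with LPS and 58 with IL-10 + LPS, a difference of -1.51. These 3 genes were at or near 0 without LPS and were lower, but not at 0, when IL-10 preceded it. Il15, which supports natural killer and memory T cells, followed another course, with 454.5 untreated, 237 with IL-10, 324 with LPS and 136.5 with IL-10 + LPS. Lif, a cytokine of the IL-6 family, likewise had 3925, 1643, 4511 and 1776.5, close to equal with and without LPS and lower in both IL-10 groups.

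Tnf, the inflammatory cytokine, had values of 551, 575, 5661.5 and 3076.5, and its difference of -0.88 did not reach 2-fold. Its relatives Lta and Ltb, which form lymphotoxins, were called, the first at 93.5 and 31.5 and the second at 179 and 83.5 in the same 2 groups, as was Cd70 at low values of 14 and 1.5. Over all genes 4.55% were lower and 2.78% higher, which is the measure for the small lists here. Of the 7 TNF family ligands compared, 3 were lower and 0 higher, with a median of -0.88. Of 8 interleukins compared, 3 were lower and 1 was higher, with a median of -0.18. Il13, a type 2 cytokine of mast cells, was at 341.5 with LPS and 418 with IL-10 + LPS, and Il4, another, at 265 and 260.5. Among 8 growth factors, Csf2 and Lif were lower and Osm, the cytokine oncostatin M, was higher, with values of 1065.5, 2166.5, 1007.5 and 3338.5 in the 4 treatments, a difference of 1.73.

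The strongly raised genes were of mixed function. Prss23, a secreted serine protease (chr7:96656295-96666096, minus strand, NCBIM37), had values of 18 untreated, 618 with IL-10, 0.5 with LPS and 338 with IL-10 + LPS, a difference of 7.82, which was 5.05 with a pseudocount of 10. Wisp2, a matricellular protein, had 99.5, 1998, 40.5 and 1786, a difference of 5.43. Timp1, an inhibitor of matrix metalloproteinases, had 19, 311, 13.5 and 344, a difference of 4.57, and Mt2, a metal-binding metallothionein, 64, 400.5, 82 and 642.5, a difference of 2.95. These 4 genes were high in both groups with IL-10 and low in both groups without it. Cck, which encodes cholecystokinin, was high in the same groups, at 4, 60.5, 2 and 89.

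Il10 itself was among the raised genes (chr1:132916422-132921551, plus strand, NCBIM37), with values of 1.5 untreated, 159.5 with IL-10, 5 with LPS and 208.5 with IL-10 + LPS, a difference of 5.13. Its transcript was near 0 without added IL-10, with or without LPS. The nucleotide receptor P2ry2 had 61, 562.5, 72 and 1304.5, a difference of 4.16. Its relative P2ry6 had 49.5, 172, 5 and 53.5, a difference of 3.18, so that the value with IL-10 + LPS was close to the untreated one. Eps8, an actin regulator, had a like course at 145.5, 491, 20 and 152. Both genes were lower with LPS than without it and higher with IL-10 in either state.

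Ext1, which extends heparan sulfate chains, had values of 214.5, 749, 225 and 2236, and Hs3st1, which sulfates them, 828, 1914.5, 1160 and 8338, with differences of 3.31 and 2.84. In both, IL-10 + LPS gave a higher value than either agent alone. Lrrc25, a leucine-rich repeat membrane protein, showed this most clearly, at 138 untreated, 140 with IL-10, 127 with LPS and 1214.5 with IL-10 + LPS, a difference of 3.25. Its value with either agent alone was near the untreated one. The IL-10 group was collected 4 h earlier than the IL-10 + LPS group. For these genes, the pair of agents and a longer time after IL-10 cannot be told apart. AI646023, an uncharacterised gene, was at 1, 5.5, 28 and 267, and Saa3, an acute-phase serum amyloid, at 10, 15, 248.5 and 901, a difference of 1.85; these were higher with LPS and higher again with IL-10 + LPS. Il2ra, the alpha chain of the IL-2 receptor, did likewise at 3621.5, 4495, 7653 and 21935.

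**Figure D3:**
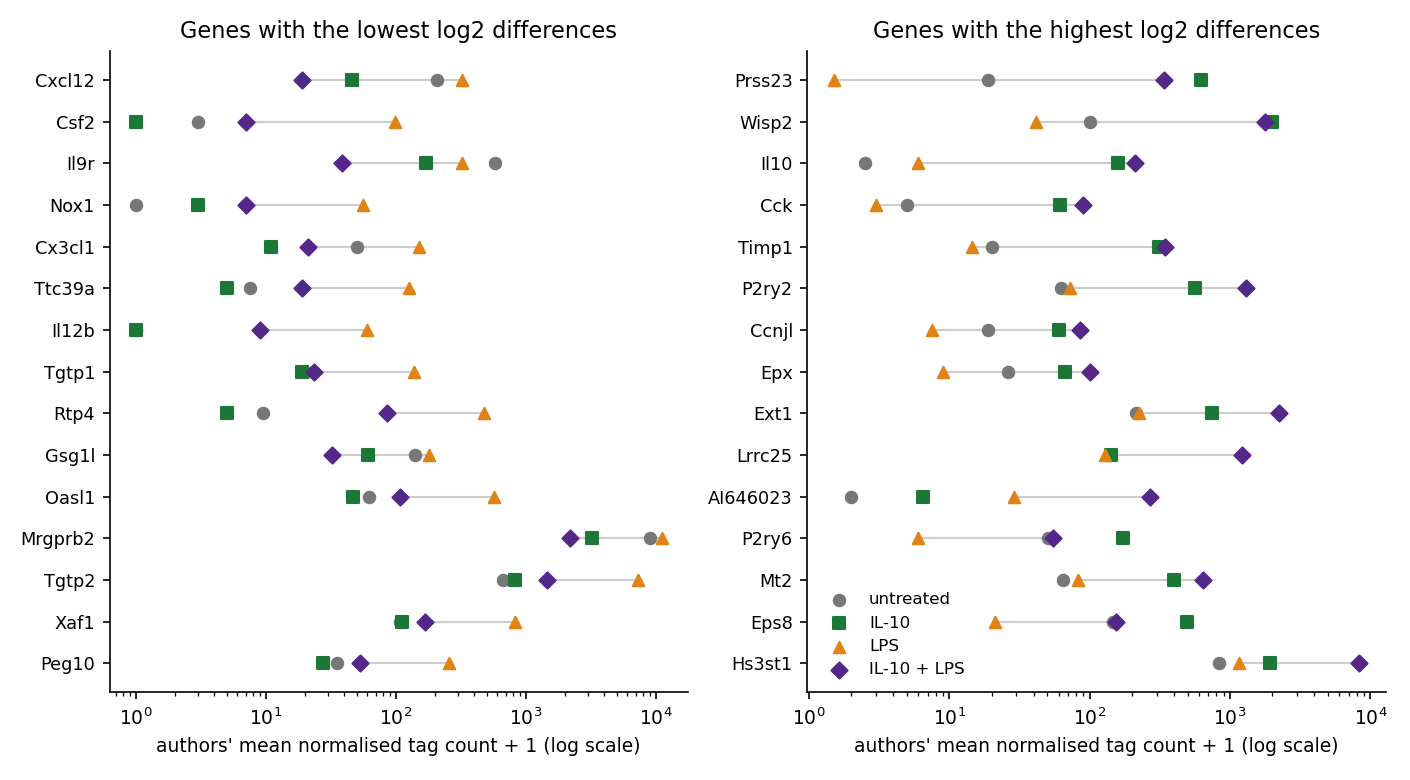
Values (authors' mean normalised tag count plus 1, log scale) of the 15 genes with the lowest and the 15 with the highest differences, under the 4 treatments; a grey line joins LPS and IL-10 + LPS. Cxcl12 and Mrgprb2 are low in both IL-10 groups, Rtp4 and Tgtp2 are high with LPS alone, and Lrrc25 is high with IL-10 + LPS alone.

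The 15 compared genes of a list of known IL-10 and STAT3 targets had a median of 0.34, with 3 higher and 1 lower. The shares over all genes were 2.78% higher and 4.55% lower. Sbno2, a helicase-family co-regulator induced by IL-10, had values of 3403, 8959, 3123 and 9268, a difference of 1.57. Arid5a, an RNA- and DNA-binding regulator of inflammatory messages, had 284.5, 1230.5, 282.5 and 1601, a difference of 2.50, and the metalloproteinase Mmp19 415.5, 929, 161 and 669, a difference of 2.05. These 3 were higher with IL-10 whether or not LPS was present. Socs2, an inhibitor of cytokine receptor signalling, was the lowered member, at 561.5, 308.5, 1112.5 and 269.5, a difference of -2.04. Bcl3, Socs3 and Stat3 were not analysed here, nor were Irf7, Rela and the mast cell markers Fcer1a and Cpa3, since the copy of the table used ended before all genes were listed.

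In the receptor pathway, Jak3, the kinase of common gamma chain receptors, had values of 1477.5, 5817, 1455 and 6630, a difference of 2.19, high in both IL-10 groups. Il10ra, the ligand-binding receptor chain, was at 8125 with LPS and 4918 with IL-10 + LPS, a difference of -0.72, and Il10rb, the accessory chain, at 938 and 788.5, a difference of -0.25. Tyk2, a kinase that binds the accessory chain, was at 3284.5 and 1701, a difference of -0.95, so these receptor components lay within 2-fold. Over the 11 pathway genes compared the median was -0.35.

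Genes of the mast cell itself differed unevenly. Mrgprb2, the receptor through which cationic peptides and drugs degranulate mast cells (chr7:55806338-55813456, minus strand, NCBIM37), had values of 9060.5 untreated, 3216.5 with IL-10, 11062 with LPS and 2191 with IL-10 + LPS, a difference of -2.34. Slc6a4, the serotonin transporter, had 470.5, 324.5, 2228.5 and 620.5, a difference of -1.84. These were the 2 called among 15 mast cell markers, beside 4.55% lower over all genes. The median of the markers was -0.48 and none was called higher. Tpsab1, a tryptase, was at 7077.5 with LPS and 4147 with IL-10 + LPS, and Adora3, the A3 adenosine receptor that promotes degranulation, at 9262.5 and 13705, each within 2-fold. Tph1, which makes serotonin, was at 54476.5 untreated, 144718 with IL-10, 193346 with LPS and 204998 with IL-10 + LPS, so it was higher with either agent than untreated. The highest value of a transcript was 185338 in each of the 18 columns, and the main transcript of Tph1 stood at it in both LPS groups, so these cannot be compared for this gene. Cyp11a1, a steroid-synthesis enzyme of mast cells, stood at that shared maximum in every mast cell group except IL-10 + LPS, where it was at 94804, so its difference of -0.97 may be understated. The markers Tpsb2 (187547 with LPS and 187514 with IL-10 + LPS) and Il1rl1 (207136 and 212966) had sums above that maximum in every mast cell group. Differences in them may be hidden too, which also limits the count and median of the markers.

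Receptors for growth and recruitment signals were called in both directions. Il9r, the receptor for the mast cell growth factor IL-9 (chr11:32087541-32100236, minus strand, NCBIM37), had values of 579.5, 170, 322 and 37.5 in untreated, IL-10, LPS and IL-10 + LPS cells, a difference of -3.07. It was lowest with both agents. The chemokine receptors Ccr1 and Ccr3 were also lower, the first at 8602 and 2599 and the second at 738.5 and 282 in the LPS and IL-10 + LPS groups. Il1r1, the IL-1 receptor, was higher, with 171.5, 374, 48 and 199, a difference of 2.03, as was Il1rl2, a receptor for IL-36, at low values of 16.5 with LPS and 36.5 with IL-10 + LPS. Of 33 receptors compared, 3 were lower and 3 higher, with a median of 0.07, beside 4.55% lower and 2.78% higher over all genes. Among 18 growth and adhesion genes of mast cells, the integrin Itgb3 and the tetraspanin Cd9 were lower, with differences of -1.06 and -1.22, and 0 were higher.

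The lists for the sensing of LPS and for NF-kB are small, and beside 4.55% lower and 2.78% higher over all genes their counts are near the background. Of 19 NF-kB factors and regulators compared, 0 were called in either direction, with a median of -0.20. Nfkb1, the p105 and p50 subunit gene, was at 14904 with LPS and 12170 with IL-10 + LPS, a difference of -0.29. Nfkbiz, a nuclear IkB protein, was at 632.5 untreated, 1089.5 with IL-10, 7644.5 with LPS and 8090 with IL-10 + LPS, a difference of 0.08, and Tnfaip3, the feedback inhibitor A20, at 6227.5, 4685, 21017.5 and 12517.5, a difference of -0.75. All 3 were higher with LPS than without it in both the presence and the absence of IL-10. Of 13 genes of LPS sensing, Nod2, a cytosolic peptidoglycan sensor, was lower (155.5 and 63.5), though its most abundant transcript differed by only -0.12. Of the 4 interferon regulatory factors compared, 0 were called; Irf3, which is activated by phosphorylation, was at 1804.5 and 1585.5. Nos2, the inducible nitric oxide synthase, was at 185.5 with LPS and 238 with IL-10 + LPS, a difference of 0.36.

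Among early response factors, 3 of 17 were lower and 1 was higher, beside 4.55% and 2.78% of all genes. Fos, an AP-1 subunit, had values of 1159, 844, 475 and 100.5, a difference of -2.23, while Myc, a growth-promoting transcription factor, had 1741, 2445, 626 and 2728.5, a difference of 2.12. Without IL-10 both were lower with LPS than untreated, and with IL-10 + LPS the first was lower still and the second was above the untreated value. Dusp5, a phosphatase of ERK kinases, differed by -1.21 and Nr4a3, an orphan nuclear receptor, by -1.13, or -0.97 and not called with a pseudocount of 10. Ndrg1, a stress- and hypoxia-responsive gene, had 25517.5, 6416, 52644 and 13197.5, a difference of -1.996 with LPS and -1.992 without it. Its IL-10 difference was thus alike in either state, while its level was higher in the groups with LPS.

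Of the 18 compared genes on a list of stress and amino acid response, 3 were higher and 0 were lower. Over all genes 2.78% were higher and 4.55% lower, which is the measure for each list in this paragraph. Trib3, a stress-induced pseudokinase, differed by 1.89, Asns, asparagine synthetase, by 1.33 and Shmt2, a mitochondrial serine enzyme, by 1.01. Among 20 glycolysis and hypoxia genes, Ndrg1 and the enolase Eno2 (-1.16, but -0.97 and not called from its most abundant transcript) were lower, and Ankrd37 was higher at low values of 5 and 15.5. Among 14 sterol genes, the cholesterol exporter Abcg1 (-1.24) and, at 23.5 and 11, the cholesterol hydroxylase Ch25h were lower, and the synthesis enzyme Lss (1.03) was higher. Among 16 antigen presentation genes, the class I genes H2-Q6 (-1.64) and H2-Q7 (-1.30), near-identical copies, and the adhesion molecule Vcam1, at 28.5 and 10.5, were lower. Of 19 enzymes of granules, histamine and eicosanoids, Saa3 alone was called. Of 13 ribosomal proteins, Rps2 alone was called, higher by 1.13, with pseudogene copies that make its count uncertain; of 46 respiratory chain genes, Cox6b2 alone was called, at 32 and 8.5. Of 30 cell cycle genes 0 were called, with a median of -0.05.

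How the same genes stood with IL-10 in the absence of LPS was read from IL-10 against untreated cells, which share no library with the main comparison. Both groups were collected 4 h earlier than those with LPS. LPS and the longer time after IL-10 therefore cannot be told apart between these comparisons. Of the 230 genes called lower with LPS that passed the minimum there, 78 (33.9%) were at least 2-fold lower with IL-10 alone, beside 2.67% of all genes, and 1 was higher. Of 150 genes called higher, 69 (46%) were at least 2-fold higher with IL-10 alone, beside 2.14% of all genes, and 2 were lower. Over the 5575 genes that passed the minimum in both, Pearson's r was 0.73 and Spearman's rho 0.70, a description across genes that are not independent of each other.

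The lowered genes divided by the interferon list. Of the 224 lowered genes outside it, 201 passed the minimum without LPS; 78 of these were at least 2-fold lower with IL-10 alone and the median difference without LPS was -0.83. Of the 33 on it, 29 passed and 0 were lower, with a median of 0.02. Cxcl12, Il9r, Mrgprb2 and Ndrg1, with differences without LPS of -2.16, -1.76, -1.49 and -1.99, were lowered in either state. Gsg1l, an auxiliary subunit of glutamate receptors, did so too, at 139, 60, 178.5 and 31. Of the 15 genes with the highest differences, 14 passed the minimum without LPS and 13 of them were at least 2-fold higher there. Lrrc25 was the exception, with a difference of 0.02 without LPS and 3.25 with it, and the time after IL-10 also differed between these.

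**Figure D4:**
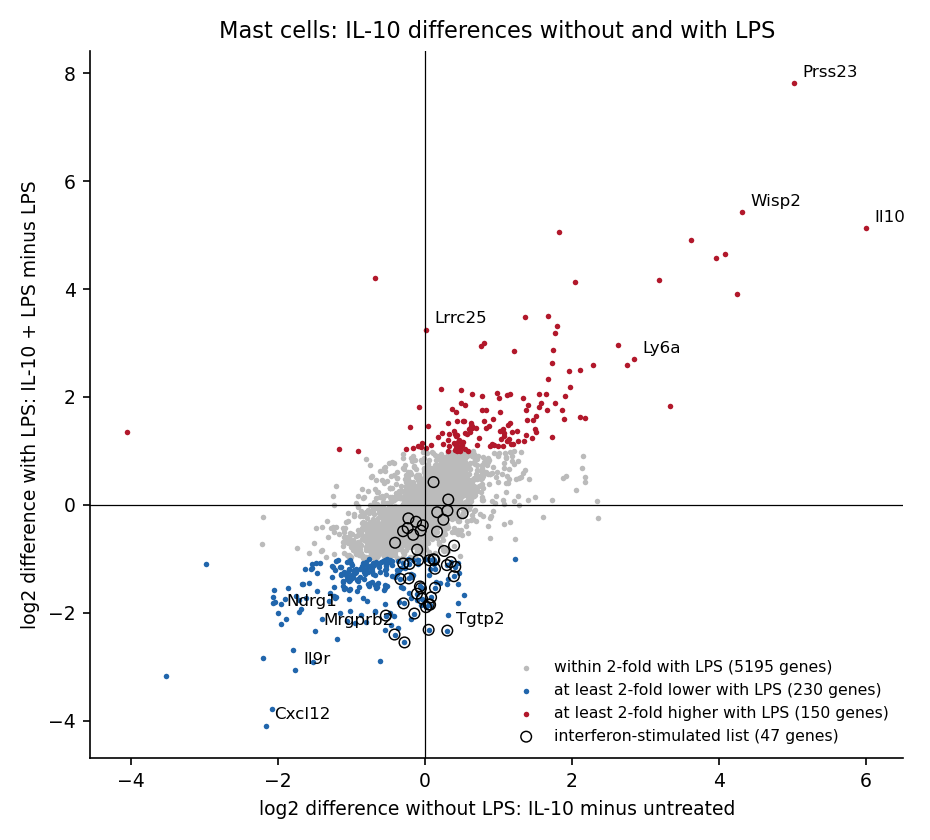
Each point is a gene, with its log2 difference between IL-10 and untreated mast cells on the x axis and between IL-10 + LPS and LPS on the y axis; colours mark the calls with LPS and rings the interferon-stimulated list. Prss23, Wisp2 and Il10 lie high on both axes, Cxcl12 and Il9r low on both, and the rings fall along the vertical line at 0.

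The same comparison was set beside macrophages, neutrophils and splenic dendritic cells (sDCs), which share no library with the mast cells. Among the mast cell genes called lower, the macrophage comparison also called 37 of 202 lower (18.3%, beside 4.3% of all genes), the neutrophil comparison 63 of 199 (31.7%, beside 3.71%) and the sDC comparison 18 of 212 (8.49%, beside 2%). Among those called higher, 18 of 137 (13.1%, beside 2.94%), 32 of 142 (22.5%, beside 2.96%) and 22 of 137 (16.1%, beside 2.4%) were also higher, in the same order. Some went the opposite way. Of the genes called lower in mast cells, 12, 5 and 5 were called higher there (5.94%, 2.51% and 2.36%). Of those called higher, 7, 3 and 4 were called lower (5.11%, 2.11% and 2.92%), and their median in macrophages was -0.03. Across genes, Pearson's r with the mast cells was 0.15 in macrophages, 0.33 in neutrophils and 0.24 in sDCs. The interferon-stimulated list was lower in 31 of 53 genes in neutrophils (median -1.21), near the 33 of 53 in mast cells, but in 6 of 53 in sDCs (median -0.59) and 6 of 53 in macrophages (median -0.17). These differences between cell types were not tested.

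Single genes showed where the cell types parted. Il12b was lower in each, by -2.72 in mast cells, -4.00 in macrophages, -7.20 in neutrophils and -3.11 in sDCs, and Mt2 was higher in each, by 2.95, 2.21, 3.31 and 2.44. Tnf, not called in mast cells at -0.88, differed by -3.02 in macrophages, -1.97 in neutrophils and -1.75 in sDCs. Il10 was 5.13 in mast cells but -0.53 in macrophages, -2.85 in neutrophils and -0.32 in sDCs. Ccr1 was lower in mast cells, by -1.73, and higher in macrophages and neutrophils, by 1.87 and 1.35, and Nos2 was called higher in macrophages (2.40), neutrophils (2.997) and sDCs (1.19) but not in mast cells (0.36). Wisp2, Cck, Mrgprb2 and Gsg1l did not pass the minimum in any of the other 3 cell types, and Osm, higher in mast cells by 1.73, differed by -1.06 in macrophages.

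**Figure D5:**
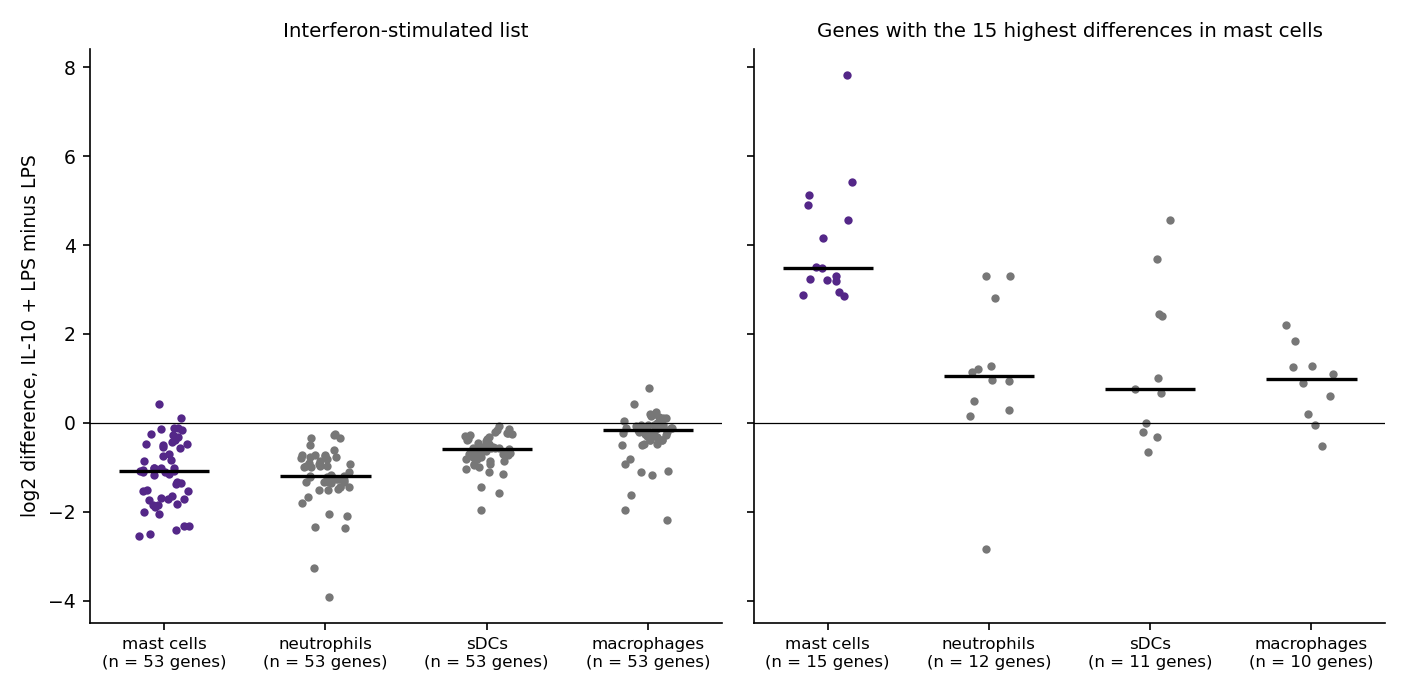
Log2 differences between IL-10 + LPS and LPS in 4 cell types, for the interferon-stimulated list and for the 15 genes with the highest differences in mast cells; each point is a gene and the bar is the median. The medians of the interferon list are -1.09, -1.21, -0.59 and -0.17 in mast cells, neutrophils, sDCs and macrophages, and the right panel shows genes selected on the mast cell values.

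Markers of other cell types were present at some level in the mast cell cultures. Summed over the list, neutrophil markers were at 1081.5 with LPS and 1061.5 with IL-10 + LPS, macrophage markers at 2320 and 1853.5, dendritic cell markers at 376.5 and 343, and lymphocyte markers at 38 and 17.5. Of 7 neutrophil markers compared, Elane, at 15.5 and 3, and Mmp9, at 38.5 and 12.5, were lower, beside 4.55% of all genes. The single lymphocyte marker compared, Cd4, was lower, at 29.5 and 11.5. Of 3 eosinophil and basophil markers Ccr3 was lower and Epx, eosinophil peroxidase, higher, with 25, 66, 8 and 99 in the 4 treatments. None of the 3 dendritic cell markers or the 3 erythroid and platelet markers was called, with medians of -0.20 and 0.17. The part of other cells in these values was not tested, and in bulk cultures fewer cells of a type and less RNA per cell cannot be told apart.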

How the data were processed

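RNA-seq of mast cells under 4 treatments was used, with 2 libraries per group. The deposited values are a score, GC-normalised tag counts that the authors made from Bowtie 0.12.9 alignments and RSEM 1.2.1 estimates on Ensembl transcripts of mouse build mm9, normalised with EDASeq and averaged over replicates. Replicates were made with different library kits, 1 kit per replicate number, so the kit was balanced between groups. Library totals are not in the table, so the depth behind a value is unknown and no interval is given. The copy used held 17015 complete rows and 1 broken row; 22 rows without a gene name (0.129%) were left out, and 16993 transcripts were summed into 6509 genes with pandas. Genes with either value at 10 or more were kept, a pseudocount of 1 was added, and 2-fold was called; the steps were tested on simulated data. With 1 mean per group no test was possible.

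Members and the 28 gene lists were chosen with earlier results of these data known. Named genes had a higher value of at least 50 and were the 15 lowest, the 15 highest, list members past 2-fold, and a fixed set of cytokine, receptor and signalling genes whatever their difference; members called at lower values are given as low. Gene positions are NCBIM37, from the GENCODE annotation matched by transcript identifier, and promoters are RefSeq GRCm38.p6, matched by symbol. Alternatives were another pseudocount, centring, the most abundant transcript, other minima, single transcripts and another fold. Some results are not reported here.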

Additional observations from a re-analysis of the deposited data

How the results depend on the processing

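No paired analysis was possible because the table holds 1 mean per group, and for the same reason no replicate could be left out. With no spread known, a value counts as moved when it shifted by at least 1.5-fold. The counts of 257 lower and 157 higher genes stayed within 1.5 times with a pseudocount of 10 (197 and 121), centring on the median (246 and 166), the most abundant transcript (289 and 186) and a minimum of 50 (181 and 120). With no minimum, 387 genes were lower and 225 higher. Counted by transcript, 1156 were lower and 984 higher, and at 1.5-fold 631 genes were lower and 418 higher. The count with no minimum was over 6509 genes and that by transcript over 14209 transcripts, beside 5647 genes in the main count. By transcript the share called was also larger in both directions, so the number of features does not account for those counts. At 1.5-fold the limit itself was lower. Of the 257 and 157 genes, 237 and 145 were also called from the most abundant transcript. Among list medians, the chemokines moved to -1.65 with a pseudocount of 10, and with no minimum the lymphocyte markers moved to -0.50 and the erythroid and platelet markers to -0.59; the others stayed within 1.5-fold in every alternative run. Of 98 named genes none called changed direction. With a pseudocount of 10, 10 moved, each to a smaller difference, among them Prss23 to 5.05, Il10 to 3.86, Timp1 to 3.91, Csf2 to -2.74 and Il12b to -1.93. With the most abundant transcript 4 moved, Eps8 to 3.89, Timp1 to 3.72, Nr4a3 to -1.86 and Nod2 to -0.12. Calls were also lost for Ifi47 after centring (-0.99) and for Mov10 (-0.55) and Sp100 (-0.92) with the most abundant transcript.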

Other observations

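The genes in this paragraph and the next were picked after their values were seen and are given as values, with no explanation. Several raised genes are known for ribosome assembly. Nop2, a ribosomal RNA methyltransferase, had values of 1605.5 untreated, 2109.5 with IL-10, 1129 with LPS and 2498 with IL-10 + LPS, a log2 difference of 1.15. Nolc1, a nucleolar phosphoprotein, had 2322, 3219, 1766.5 and 3725.5, a difference of 1.08, and Rrp1b, a nucleolar protein, 885, 1383.5, 534 and 1480.5, a difference of 1.47. Each was lower with LPS than untreated and highest with IL-10 + LPS. Ctps, which makes cytidine triphosphate, had 555, 800.5, 366.5 and 1074.5, and Atic, which completes purine synthesis, 2058, 2791, 1439.5 and 2985, the same order of treatments. In macrophages, neutrophils and sDCs the differences between IL-10 + LPS and LPS were -0.07, 0.14 and -0.08 for Nop2 and -0.38, 0.00 and 0.09 for Ctps.

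Ly6a, which encodes the surface protein Sca-1, was called higher, with values of 8395 untreated, 60369 with IL-10, 18753 with LPS and 122463 with IL-10 + LPS, a difference of 2.71. In macrophages, neutrophils and sDCs its difference was 1.18, 0.07 and 0.32. Pim2, a survival kinase, had 715.5, 4836.5, 1697.5 and 10281.5 in mast cells, a difference of 2.60, and differed by -0.82 in macrophages. Both genes were higher with LPS, higher with IL-10 and highest with the pair. Among genes that were higher with LPS, Gpr56, an adhesion receptor, had 5021, 6861.5, 41233.5 and 19595.5, a difference of -1.07, and Smap2, a regulator of vesicle transport, 5008, 4436, 23523.5 and 9274, a difference of -1.34. Neither is on the interferon list. Sytl2, which tethers secretory granules to the plasma membrane, had 5950.5, 2262, 5176 and 1199.5, a difference of -2.11, and was low in both IL-10 groups.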
